A study of Mus musculus with 24 samples.

Results

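The carbon 3 series holds 3 of the 7 bile acids tested in the study: lithocholic acid (LCA), isolithocholic acid (IsoLCA) and dehydrolithocholic acid (DehydroLCA). The rule that defines the set uses structure alone. The acids differ at carbon 3 of the steroid, where LCA carries a hydroxyl group in the alpha orientation, IsoLCA is its beta epimer and DehydroLCA carries a ketone. The series covers 9 of the 24 RNA-seq libraries, 3 per acid, set beside the 3 Control libraries. Each acid was compared with Control, and the acids were compared with each other in all 3 pairs.

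The cells were mouse T cells, described by the submitters as CD8+ T cells activated in vitro before single bile acids were added. LCA, IsoLCA and DehydroLCA are unconjugated and were all given at 50 µM, so the pairs are matched in dose and time. The series design states 24 hours of exposure, while the treatment protocol says overnight. The Control group is labelled as control and nothing more, so a vehicle, a mouse strain, an age and the activating stimulus are not stated. The labels do not say whether the 3 libraries of a group came from separate mice or cultures. Each p-value is set against the spread of libraries within groups, estimated over all 24 libraries of the series, and that spread may be technical.

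Bile acids are made from cholesterol in the liver, and gut bacteria convert some of them to secondary acids such as LCA. Bacterial hydroxysteroid dehydrogenases act on carbon 3 and can turn the alpha hydroxyl into a ketone and the ketone into a beta hydroxyl, which makes DehydroLCA the chemical intermediate of the 2 epimers. LCA is known as a ligand of the vitamin D receptor (Vdr), the membrane receptor Gpbar1 and the nuclear receptor Nr1h4, and relatives of LCA are known to act on T cell differentiation.

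The libraries held 32308354.5 to 41024340.5 counts in genes across the 12 samples, and 13044 of 24537 genes had enough counts to be tested. Markers of CD8 T cells (Cd3e, Cd3g, Cd3d, Cd8a, Cd8b1, Cd2, Lck and Thy1; all 8 tested) summed to between 4199 and 4919 counts scaled to library size (CPM) in these libraries, with the highest sums under IsoLCA. B cell and myeloid markers summed to under 6.5 and 4.5 CPM, with 2 of 6 and 4 of 9 members tested. The 5 CD4 and regulatory T cell markers summed to 377 to 408 CPM in Control, 303 to 322 CPM with LCA, 291 to 312 CPM with IsoLCA and 368 to 379 CPM with DehydroLCA; Ctla4 is a member of that list and was lower with LCA and IsoLCA. The 5 dendritic cell markers, of which Flt3 was too low to be tested, summed to 45.2 to 51.5 CPM in Control, 57.2 to 62.2 CPM with LCA, 33.1 to 44.4 CPM with IsoLCA and 49.7 to 54.0 CPM with DehydroLCA. Within that list Batf3, which T cells also express, and Zbtb46 rose with LCA. In bulk RNA of this kind, a change in the number of cells of a type and a change in the RNA per cell cannot be told apart. NK cell markers (3 of 4 tested) summed to between 20.7 and 28.5 CPM and erythroid and stromal markers (2 of 6 tested) to between 34.8 and 54.9 CPM, lower with every acid than in Control. Pax5, Csf1r and Hbb-bs were at 0 counts in all Control libraries. The part of these markers in the results was not tested.

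The 3 acids changed very different numbers of genes at the same dose. A gene is called here when its edgeR quasi-likelihood p, adjusted by Benjamini-Hochberg over the 13044 tested genes, is under 0.05. LCA changed 4765 genes (36.5% of those tested), 2312 higher (17.7%) and 2453 lower (18.8%). IsoLCA changed 1284 genes (9.84%), 486 higher (3.73%) and 798 lower (6.12%). DehydroLCA changed 760 genes (5.83%), 315 higher (2.41%) and 445 lower (3.41%). The order of the acids was the same among genes called with at least a 2-fold change, which numbered 268 with LCA, 96 with IsoLCA and 39 with DehydroLCA. The IsoLCA and DehydroLCA counts leaned on single libraries: without Control replicate 2 they were 815 and 400, and the DehydroLCA count was 426 without DehydroLCA replicate 1 and 460 without DehydroLCA replicate 3. Without Control replicate 1 the DehydroLCA calls split into 187 higher and 427 lower. Among IsoLCA calls of at least 1.5-fold, 56 were higher and 188 lower.

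**Figure D1:**
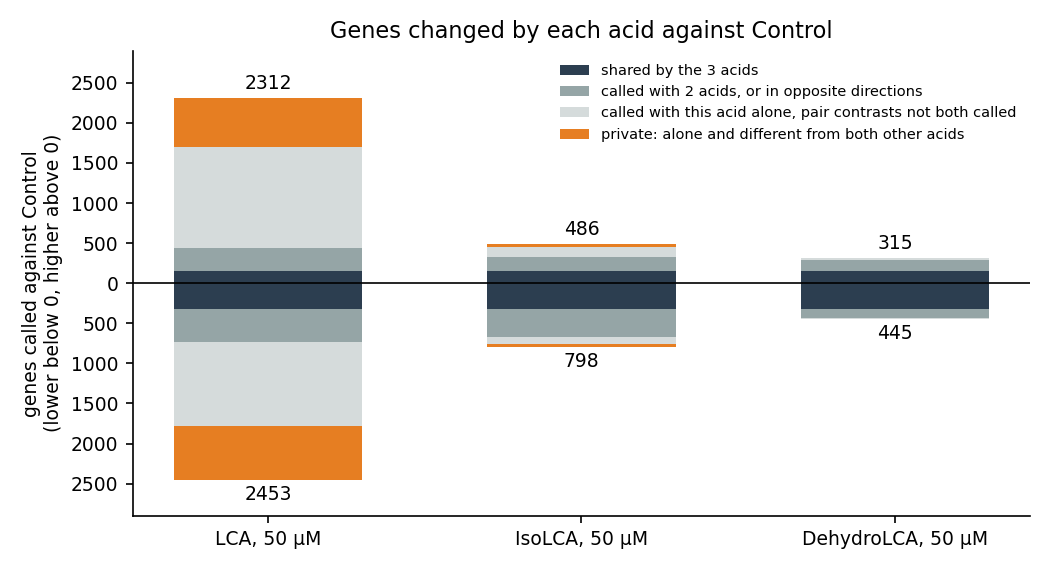
Numbers of genes called (edgeR quasi-likelihood test, adjusted p under 0.05, of 13044 tested) with each acid against Control. Each bar is divided into genes shared by all acids, called with a pair of acids, called with that acid alone, and private to it as defined in the text. LCA gave the most calls (4765) and DehydroLCA the fewest (760).

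Distances over all tested genes gave the same order without a threshold. The root mean square log2 difference from Control, with the part due to estimation error removed, was 0.313 for LCA, 0.198 for IsoLCA and 0.152 for DehydroLCA. Leaving out each of the 12 libraries in turn gave 0.303 to 0.342, 0.188 to 0.226 and 0.145 to 0.168 for the 3 acids, ranges that do not overlap. Between acids the distance was 0.258 for IsoLCA and LCA, 0.201 for DehydroLCA and LCA and 0.121 for DehydroLCA and IsoLCA.

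All 3 acids changed 473 genes in the same direction (3.63% of those tested), 156 higher (1.2%) and 317 lower (2.43%). These shared genes were 9.93% of the LCA calls, 36.8% of the IsoLCA calls and 62.2% of the DehydroLCA calls. The 3 comparisons use the same Control libraries, so the count describes these calls and was not tested as an overlap. It fell to 262 without Control replicate 2 and to 307 without DehydroLCA replicate 1. Among the shared genes the median log2 fold change of those that rose was 0.33 with LCA, 0.27 with IsoLCA and 0.23 with DehydroLCA, and that of those that fell was -0.56, -0.39 and -0.32. A single gene was called with all 3 acids in differing directions: Gbp6, an interferon-induced GTPase, rose with LCA (log2 fold change 0.16) and fell with IsoLCA (-0.28) and DehydroLCA (-0.22).

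The shared rises were led by Lmna, which encodes the nuclear envelope proteins lamin A and C, and by Rxra, the partner of many lipid-sensing nuclear receptors. Lmna (chromosome 3, 88481148 to 88503352, minus strand, GRCm38) stood at 7.43, 6.94 and 6.55 CPM in the Control libraries, 18.7, 19.03 and 18.5 CPM with LCA, 23.6, 23.1 and 24.2 CPM with IsoLCA and 16.4, 14.1 and 13.9 CPM with DehydroLCA. All 9 acid libraries lay above Control, and the 3 acids did not overlap, with IsoLCA highest and DehydroLCA lowest. Its log2 fold changes were 1.43 ± 0.066 (SE of the fit), 1.76 ± 0.065 and 1.09 ± 0.068 with LCA, IsoLCA and DehydroLCA, with edgeR adjusted p values of 2.89e-14, 3.02e-16 and 5.62e-11. Rxra (chromosome 2, 27677201 to 27763319, plus strand) stood at 22.1, 19.4 and 22.4 CPM in the Control libraries, 35.1, 32.7 and 34.2 CPM with LCA, 44.9, 43.2 and 47.4 CPM with IsoLCA and 39.2, 38.5 and 35.97 CPM with DehydroLCA. Each acid lay above Control with no overlap, and IsoLCA lay above the other acids as well. The log2 fold changes of Rxra were 0.67 ± 0.068, 1.08 ± 0.067 and 0.83 ± 0.068 in the same order, and DehydroLCA differed from LCA by 0.15 (95% interval 0.02 to 0.29, not called) and from IsoLCA by -0.26 (edgeR adjusted p = 0.007).

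Where 3 log2 fold changes are given together, they are for LCA, IsoLCA and DehydroLCA in that order. Rnf43, an E3 ligase that removes Wnt receptors, rose by 0.73 with LCA, 0.73 with IsoLCA and 0.66 with DehydroLCA on the log2 scale, and no pair was called, with the widest difference, DehydroLCA against IsoLCA, at -0.08 (95% interval -0.24 to 0.09). Gcnt1, which branches O-glycans on T cell surface proteins, rose by 0.79, 0.62 and 0.61, and the DehydroLCA to IsoLCA difference was 0.00 (-0.14 to 0.13). Wnt10b, a Wnt ligand, rose by 0.86, 0.56 and 0.48 and was lower with DehydroLCA than with LCA (-0.38, edgeR adjusted p = 0.0156). Per2, a circadian clock repressor, rose by 0.74, 0.48 and 0.52. Unc5b, a netrin receptor, rose by 0.67, 1.18 and 1.28, but its DehydroLCA libraries were uneven at 16.8, 7.16 and 8.54 CPM.

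The shared falls were led by Abcg1, the sterol exporter that liver X receptors induce, and Acp5, the tartrate-resistant acid phosphatase. Abcg1 (chromosome 17, 31057694 to 31117981, plus strand) stood at 27.04, 27.9 and 27.8 CPM in the Control libraries, 8.28, 5.97 and 6.88 CPM with LCA, 14.8, 14.8 and 15.1 CPM with IsoLCA and 9.07, 9.88 and 11.4 CPM with DehydroLCA. All acids lay below Control and none overlapped another, in the order LCA, DehydroLCA, IsoLCA from the lowest. Its log2 fold changes were -1.96 ± 0.092, -0.89 ± 0.084 and -1.44 ± 0.089 with LCA, IsoLCA and DehydroLCA (largest edgeR adjusted p = 3.13e-08). Acp5 (chromosome 9, 22126727 to 22131865, minus strand) stood at 32.9, 35.9 and 32.1 CPM in the Control libraries, 10.3, 10.1 and 9.79 CPM with LCA, 10.3, 10.5 and 8.45 CPM with IsoLCA and 18.5, 19.8 and 17.2 CPM with DehydroLCA. Here the 2 epimers overlapped and the ketone lay between them and Control. The log2 fold changes of Acp5 were -1.74 ± 0.077, -1.79 ± 0.077 and -0.86 ± 0.072, and the epimers differed by -0.05 (95% interval -0.23 to 0.12).

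Scd1, the stearoyl-CoA desaturase, fell of -1.72, -0.75 and -0.91 on the log2 scale with LCA, IsoLCA and DehydroLCA: the log2 fold changes are negative in each. Every acid library lay below Control and LCA lay below the other acids, while IsoLCA and DehydroLCA overlapped. The log2 fold changes were -1.72 ± 0.10 with LCA, -0.75 ± 0.099 with IsoLCA and -0.91 ± 0.10 with DehydroLCA (largest edgeR adjusted p = 7.58e-06). Gimap3, a GTPase of lymphocytes whose reads may be shared with near relatives, had log2 fold changes of -1.12, -1.15 and -0.76, with the ketone effect smaller than both epimers (adjusted p = 0.000111 and 4.65e-05 against LCA and IsoLCA, edgeR). Tg, the thyroglobulin gene, had log2 fold changes of -0.76, -1.14 and -0.80. The interferon-induced GTPase genes Gbp2 and Iigp1 had log2 fold changes of -0.83, -0.71 and -0.78 and of -0.68, -0.94 and -0.88. For Gbp2 no pair was called, and the DehydroLCA to LCA difference was 0.05 (95% interval -0.08 to 0.17).

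Sizes within the shared genes put LCA first. In the direct contrasts, whose p-values were adjusted over all genes of the 3 pairs together, LCA lay further from Control than DehydroLCA in 214 of the 473 shared genes, DehydroLCA further in 4, and 255 were not called. LCA lay further than IsoLCA in 155 and IsoLCA further in 36. IsoLCA lay further than DehydroLCA in 82 and DehydroLCA further in 5, with 386 not called.

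**Figure D2:**
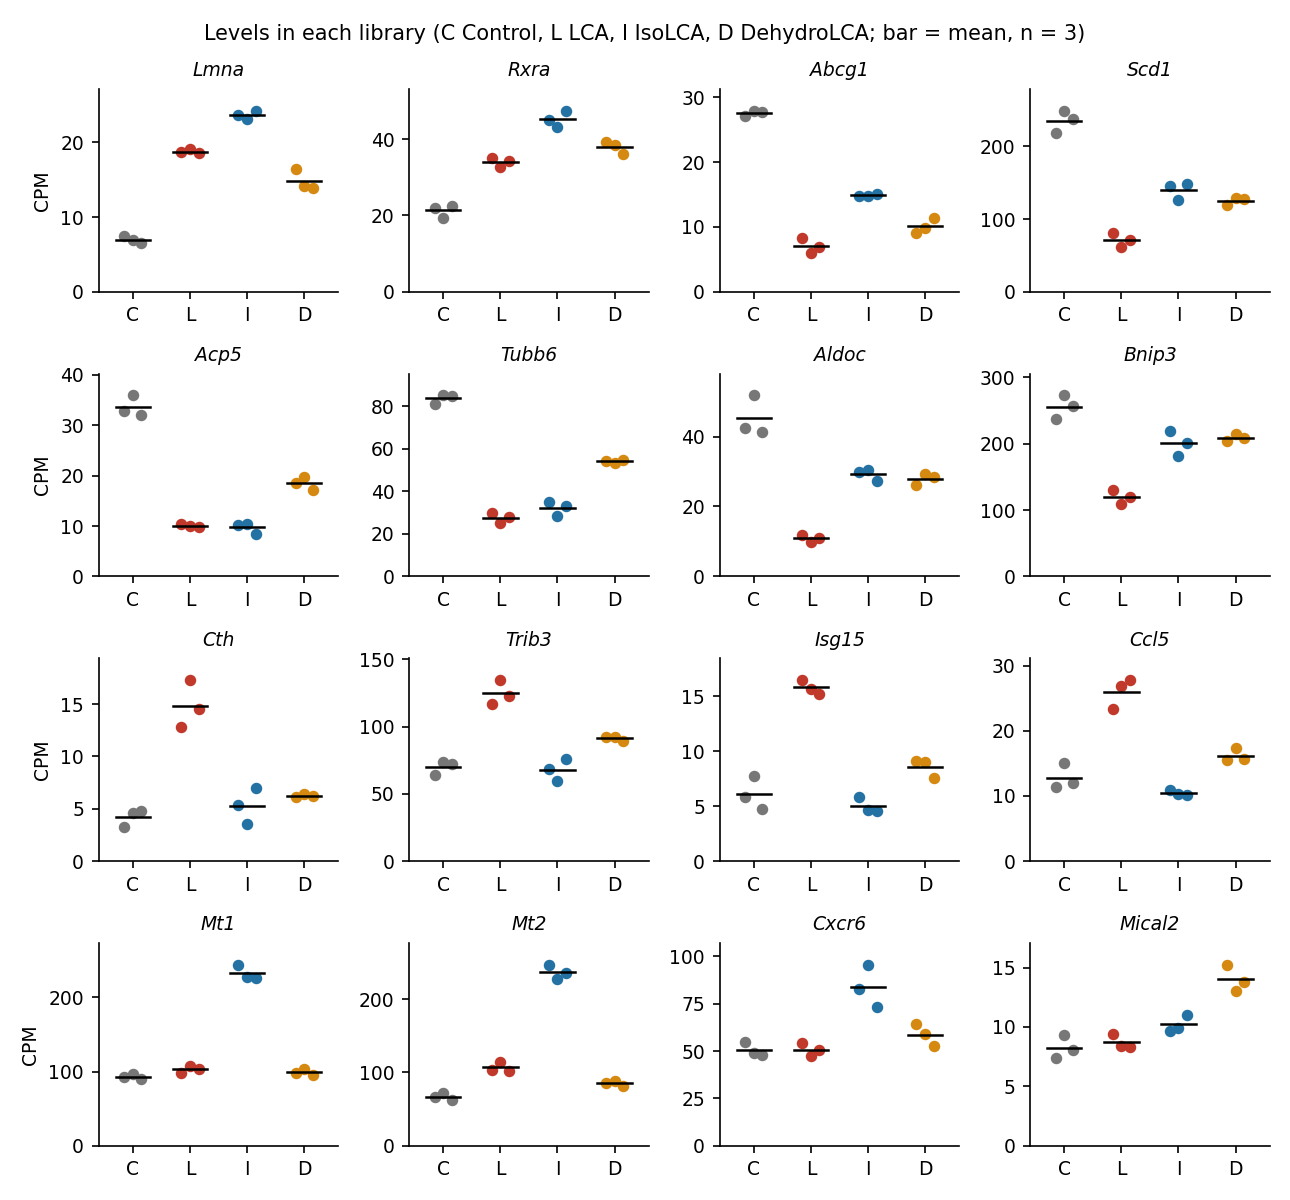
CPM of 16 genes in each library (points) of Control, LCA, IsoLCA and DehydroLCA, with the mean of 3 libraries as a bar and axes that start at 0. Lmna is above Control with every acid, Mt1 is high with IsoLCA alone, and the DehydroLCA libraries of Isg15, Ccl5 and Trib3 lie between those of LCA and IsoLCA.

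Genes of glucose metabolism and of the hypoxia response were mostly lower with all 3 acids, with the lowest list medians under LCA. Of 23 tested glycolysis genes, 21 fell with LCA, 16 with IsoLCA and 12 with DehydroLCA, none rose, and 12 were shared falls. Among all tested genes 18.8% fell with LCA, 6.12% with IsoLCA and 3.41% with DehydroLCA, and 2.43% were shared falls. The median log2 fold change of the glycolysis list was -0.50 with LCA, -0.21 with IsoLCA and -0.17 with DehydroLCA, against 0.01 over all tested genes with each acid. Of 20 other hypoxia-response genes, 16, 17 and 14 fell with LCA, IsoLCA and DehydroLCA, 1 rose with LCA (Vegfa, the angiogenic growth factor gene), and 13 were shared falls. Their medians were -0.70 with LCA, -0.41 with IsoLCA and -0.29 with DehydroLCA.

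Aldoc, an aldolase of glycolysis (chromosome 11, 78323073 to 78327778, plus strand), stood at 42.5, 51.8 and 41.3 CPM in the Control libraries, 11.7, 9.84 and 11.04 CPM with LCA, 29.96, 30.4 and 27.2 CPM with IsoLCA and 26.2, 29.4 and 28.4 CPM with DehydroLCA. LCA lay far below all other libraries, and IsoLCA and DehydroLCA overlapped each other below Control. Its log2 fold changes were -2.05 ± 0.12, -0.63 ± 0.11 and -0.69 ± 0.11, and DehydroLCA differed from IsoLCA by -0.06 (95% interval -0.29 to 0.17). Bnip3, which marks mitochondria for autophagy under hypoxia, stood at 237, 273 and 257 CPM in the Control libraries, 131, 109 and 119.7 CPM with LCA, 219.9, 182 and 202 CPM with IsoLCA and 204, 215 and 209 CPM with DehydroLCA. LCA again lay lowest, and the other acids overlapped each other. Bnip3 had log2 fold changes of -1.09, -0.34 and -0.29, its relative Bnip3l of -1.26, -0.57 and -0.52, the lactate exporter gene Slc16a3 of -1.08, -0.39 and -0.31 and the glucose transporter gene Slc2a1 of -0.54, -0.32 and -0.24 with LCA, IsoLCA and DehydroLCA. P4ha2, a collagen prolyl hydroxylase, had log2 fold changes of -1.99, -0.86 and -0.56 and Acvrl1, a receptor kinase, of -1.58, -0.44 and -0.43.

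Sterol genes fell with LCA, and in part with the other acids. Of 22 cholesterol synthesis genes 20 fell with LCA, 9 with IsoLCA and 12 with DehydroLCA, with 9 shared falls and medians of -0.61 with LCA, -0.16 with IsoLCA and -0.22 with DehydroLCA. IsoLCA lay above LCA in 19 of them and DehydroLCA above LCA in 19, while DehydroLCA and IsoLCA differed in 1, Dhcr7, the last reductase of the pathway. Among sterol uptake and SREBP genes 9, 7 and 8 of 12 fell, and among liver X receptor targets 9, 3 and 7 of 14. Among all tested genes 18.8% fell with LCA, 6.12% with IsoLCA and 3.41% with DehydroLCA, and 2.43% were shared falls. IsoLCA lay above LCA in 13.9% of all tested genes, and DehydroLCA above LCA in 9.89%. Hmgcs1, the cytosolic synthase that begins the mevalonate pathway, stood at 415, 452 and 430.4 CPM in the Control libraries, 264, 252 and 246 CPM with LCA, 399, 372 and 384 CPM with IsoLCA and 365, 379.8 and 348 CPM with DehydroLCA. LCA lay below every other library, and DehydroLCA, but not IsoLCA, was called below Control. The log2 fold changes of Hmgcs1 were -0.77 ± 0.059, -0.17 ± 0.058 and -0.25 ± 0.058 with LCA, IsoLCA and DehydroLCA, and DehydroLCA differed from IsoLCA by -0.08 (95% interval -0.20 to 0.04). Srebf1, the sterol-sensing transcription factor, had log2 fold changes of -0.53, -0.17 and -0.30.

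The Hmgcs1 promoter is shown because sterol synthesis genes moved together. It is the 250 bases before the RefSeq start of the gene on GRCm38.p6 (chr13:119690101-119690350, plus strand), 5′ to 3′, with capitals at its 1 match to the sterol element letters TCACNCCAC searched on both strands:
Hmgcs1: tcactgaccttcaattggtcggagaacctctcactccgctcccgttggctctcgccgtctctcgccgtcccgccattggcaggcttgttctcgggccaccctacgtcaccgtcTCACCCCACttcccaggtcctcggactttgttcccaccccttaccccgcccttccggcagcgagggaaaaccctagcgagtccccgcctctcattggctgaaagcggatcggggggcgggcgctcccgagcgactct
Of 17 cholesterol synthesis genes with a promoter in the table, 1 (5.88%) held these letters, against 1.05% of 32851 promoters of the same length. A match is a description of letters, not a site in use.

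**Figure D3:**
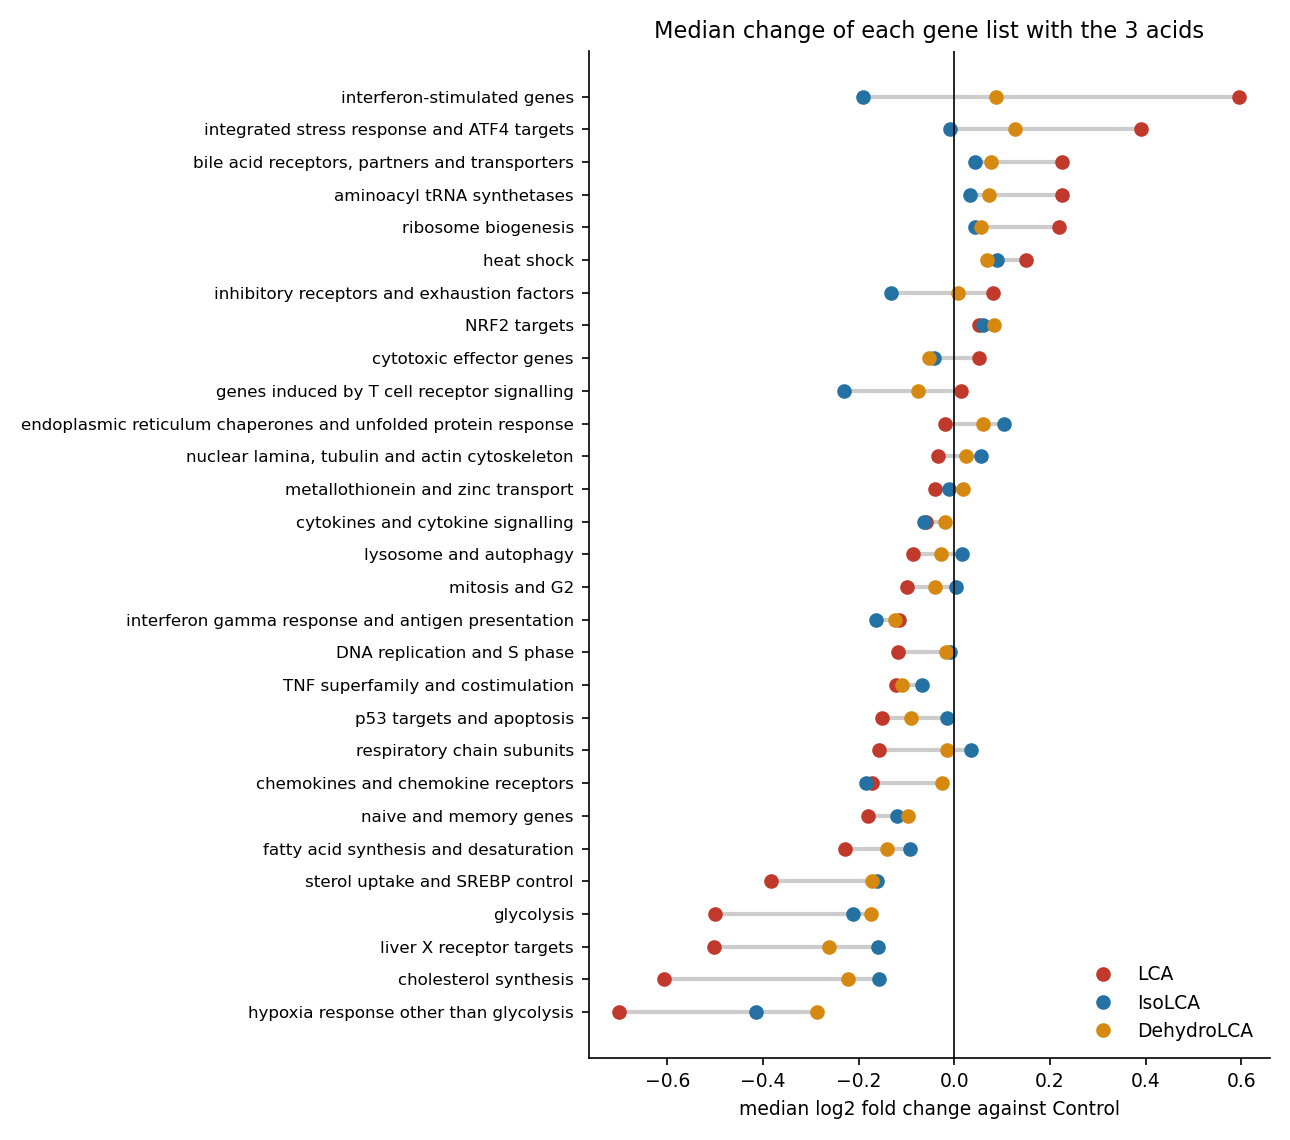
Median log2 fold change against Control of the tested members of each of 29 gene lists with LCA (red), IsoLCA (blue) and DehydroLCA (orange); grey lines join the 3 medians. The interferon-stimulated list spans the widest range, from -0.19 with IsoLCA to 0.59 with LCA, with DehydroLCA at 0.09.

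Genes private to LCA were by far the most numerous. A gene counts as private when it was called against Control with that acid alone and also called against each of the other acids on the same side. There were 1283 such genes for LCA (9.84% of those tested), 609 higher (4.67%) and 674 lower (5.17%). In all, 3594 genes (27.6% of those tested and 75.4% of the LCA calls) were called against Control with LCA alone. The private count fell to 602 without LCA replicate 2.

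The private LCA rises were led by Cth, the cystathionine gamma-lyase that makes cysteine, Cd74, the invariant chain of MHC class II, Kcnq1ot1, a noncoding RNA antisense to Kcnq1, and Aldh1l2, a mitochondrial folate enzyme. Cth (chromosome 3, 157894248 to 157925063, minus strand) stood at 3.28, 4.55 and 4.81 CPM in the Control libraries, 12.8, 17.3 and 14.5 CPM with LCA, 5.32, 3.59 and 6.95 CPM with IsoLCA and 6.16, 6.38 and 6.26 CPM with DehydroLCA. LCA lay above all other libraries and the remaining groups were close. Its log2 fold changes were 1.81 ± 0.17, 0.34 ± 0.18 and 0.57 ± 0.18, with edgeR adjusted p = 4.97e-09 for LCA, and DehydroLCA differed from LCA by -1.25 (adjusted p = 4.62e-06). Cd74 stood at 4.27, 4.96 and 4.92 CPM in the Control libraries, 11.97, 13.8 and 13.6 CPM with LCA, 4.89, 4.59 and 4.83 CPM with IsoLCA and 5.55, 5.38 and 4.93 CPM with DehydroLCA. No LCA library overlapped another group, and the IsoLCA and DehydroLCA log2 fold changes were 0.02 (95% interval -0.21 to 0.24) and 0.16 (-0.06 to 0.39). Aldh1l2 had log2 fold changes of 1.27, -0.13 (not called) and 0.28 (not called) and Kcnq1ot1 of 1.39, 0.06 (not called) and 0.14 (not called) with LCA, IsoLCA and DehydroLCA. No source used here names a strand setting for the counting, so reads of Kcnq1ot1 and its antisense partner cannot be told apart.

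Private LCA falls were led by Pygl, the liver-type glycogen phosphorylase, Tmem71, Sord, the sorbitol dehydrogenase, and Tspan2, a tetraspanin. Pygl stood at 14.2, 18.2 and 12.2 CPM in the Control libraries, 4.74, 4.60 and 4.30 CPM with LCA, 10.8, 12.02 and 10.3 CPM with IsoLCA and 9.52, 11.01 and 9.81 CPM with DehydroLCA. LCA lay lowest without overlap. Pygl had log2 fold changes of -1.70 ± 0.20 with LCA (edgeR adjusted p = 2.43e-07), while its values of -0.43 and -0.55 with IsoLCA and DehydroLCA were not called. Both were called in a fit of the 12 libraries alone and with no filter on low counts, and the DehydroLCA value with the replicate block, so that Pygl was then not private to LCA. Tmem71 had log2 fold changes of -0.86, -0.29 (not called) and -0.39 (not called), Sord of -0.76, -0.15 (not called) and -0.23 (not called) and Tspan2 of -0.76, -0.13 (not called) and -0.16 (not called). Tmem71, Sord and, among the rises, Cth were also called with DehydroLCA under some alternatives (for Cth, DESeq2's Wald test; for Tmem71, the 12 libraries alone; for Sord, the filter of 10 CPM).

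Genes of the response to amino acid stress were mostly higher with LCA. Of 35 tested genes of the integrated stress response and its factor ATF4, 26 rose and 2 fell with LCA. With IsoLCA 0 rose and 4 fell, and with DehydroLCA 4 rose and 1 fell. Among all tested genes 17.7% rose and 18.8% fell with LCA, 3.73% and 6.12% with IsoLCA and 2.41% and 3.41% with DehydroLCA. In the list 18 genes were among the 609 private LCA rises, a class that held 4.67% of all tested genes. IsoLCA lay below LCA in 29 of the 35, DehydroLCA below LCA in 24, and DehydroLCA above IsoLCA in 8. These pair shares were 12.1%, 7.22% and 2.84% over all tested genes. The list medians were 0.39 with LCA, -0.01 with IsoLCA and 0.13 with DehydroLCA. Trib3, a pseudokinase induced by ATF4 (chromosome 2, 152337425 to 152344060, minus strand), stood at 64.2, 73.6 and 72.4 CPM in the Control libraries, 117, 135 and 123 CPM with LCA, 68.7, 59.4 and 75.6 CPM with IsoLCA and 92.1, 92.3 and 89.4 CPM with DehydroLCA. The LCA libraries were highest and the DehydroLCA libraries lay between them and both IsoLCA and Control. Its log2 fold changes were 0.83 ± 0.073, -0.05 ± 0.074 and 0.38 ± 0.073, and DehydroLCA differed from LCA by -0.45 and from IsoLCA by 0.43 (edgeR adjusted p = 8.47e-05 and 0.000223). Atf5, a transcription factor of the same response, had log2 fold changes of 1.16, 0.09 (not called) and 0.26 (not called), and Ddit3, which encodes the factor CHOP, of 0.24, -0.32 and -0.04 (not called), with IsoLCA called lower.

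Genes of protein synthesis and of growth also moved mainly with LCA. Among 20 aminoacyl tRNA synthetases 13 rose with LCA, 0 with IsoLCA and 1 with DehydroLCA (medians 0.22 with LCA, 0.03 with IsoLCA and 0.07 with DehydroLCA). Among 28 ribosome biogenesis genes 17, 1 and 0 rose (medians 0.22 with LCA, 0.04 with IsoLCA and 0.06 with DehydroLCA). The shares of all tested genes that rose were 17.7% with LCA, 3.73% with IsoLCA and 2.41% with DehydroLCA. Nop56, a nucleolar RNA modification protein, had log2 fold changes of 0.44, 0.05 (not called) and 0.15 (not called) and Aars, the alanyl tRNA synthetase, of 0.40, 0.05 (not called) and 0.14. Of 31 DNA replication genes 17 fell with LCA and none was called with IsoLCA or DehydroLCA in the edgeR test, and of 30 mitotic genes 16 fell with LCA, 0 with IsoLCA and 1 with DehydroLCA. Respiratory chain subunits fell in 24, 1 and 3 of 37 cases. The shares of all tested genes that fell were 18.8% with LCA, 6.12% with IsoLCA and 3.41% with DehydroLCA. The sizes were small: the replication factor gene Pcna had log2 fold changes of -0.25, -0.05 (not called) and -0.06 (not called), and the ubiquinol-cytochrome c reductase subunit Uqcrh of -0.60, -0.01 (not called) and -0.20.

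Private IsoLCA genes numbered 76 (0.583% of those tested), 38 higher (0.291%) and 38 lower (0.291%). The count was 34 when p-values were adjusted within each pair, 49 without DehydroLCA replicate 3 and 37 without IsoLCA replicate 1. In all, 285 genes (2.18% of those tested, 22.2% of the IsoLCA calls) were called against Control with IsoLCA alone. The rises were led by Mt1, a zinc-binding metallothionein, Cxcr6, a chemokine receptor of tissue-resident T cells, Sccpdh and Dse, an epimerase of dermatan sulfate. Mt1 (chromosome 8, 94179089 to 94180327, plus strand) stood at 91.98, 96.1 and 89.9 CPM in the Control libraries, 98.3, 107 and 103 CPM with LCA, 244, 228 and 227 CPM with IsoLCA and 98.5, 103 and 94.7 CPM with DehydroLCA. The IsoLCA libraries lay above all others, and the LCA, DehydroLCA and Control libraries lay between 89.9 and 107 CPM. Mt1 had log2 fold changes of 1.33 ± 0.061 with IsoLCA (edgeR adjusted p = 2.69e-14), against 0.15 (95% interval 0.02 to 0.28) with LCA and 0.09 (-0.03 to 0.22) with DehydroLCA. Its neighbour Mt2 (chromosome 8, 94172618 to 94173567, plus strand) stood at 65.7, 71.8 and 61.8 CPM in the Control libraries, 103, 115 and 102 CPM with LCA, 247, 227 and 235 CPM with IsoLCA and 85.9, 88.6 and 81.7 CPM with DehydroLCA. Each acid lay above Control without overlap, with IsoLCA highest and DehydroLCA lowest. The log2 fold changes of Mt2 were 0.68 ± 0.073, 1.83 ± 0.073 and 0.36 ± 0.074. In a fit of the 12 libraries alone the LCA values of Mt1 and Dse were called as well, which ended their private class, as it did for Mt1 with no filter on low counts, the length and GC trend removed or the replicate block. Reads of Mt1 and Mt2, close relatives, may be shared between them in the counting.

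The Mt1 and Mt2 promoters are shown because these neighbouring genes were classed differently, Mt1 as private to IsoLCA and Mt2 as a shared rise. Each is the 250 bases before the RefSeq start on GRCm38.p6 (chr8:94178839-94179088, plus strand, and chr8:94172368-94172617, plus strand), 5′ to 3′, with capitals at matches on either strand to the metal element letters TGCACNC or TGCGCNC, which can overlap each other:
Mt1: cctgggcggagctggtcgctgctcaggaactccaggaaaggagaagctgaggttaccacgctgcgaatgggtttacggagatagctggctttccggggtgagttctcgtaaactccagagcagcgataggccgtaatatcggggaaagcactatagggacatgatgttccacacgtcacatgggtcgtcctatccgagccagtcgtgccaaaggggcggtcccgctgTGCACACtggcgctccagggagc
Mt2: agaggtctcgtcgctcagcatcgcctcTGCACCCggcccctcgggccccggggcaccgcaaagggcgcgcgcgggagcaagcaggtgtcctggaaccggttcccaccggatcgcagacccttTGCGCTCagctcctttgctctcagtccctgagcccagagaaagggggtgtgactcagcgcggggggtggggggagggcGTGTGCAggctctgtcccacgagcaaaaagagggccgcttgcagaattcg
In the 250 bases searched, Mt1 held 1 match and Mt2 held 3. Bases outside these stretches were not searched, so the counts do not describe the whole promoters. Both genes had their largest log2 fold change with IsoLCA and their smallest with DehydroLCA. Whether the letters bear on the levels was not tested. Of 14 metallothionein and zinc transport genes with a promoter in the table, 7 (50.0%) held such letters, against 21.4% of the 32851 promoters, a set not limited to tested genes.

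Cxcr6 stood at 54.7, 48.7 and 47.7 CPM in the Control libraries, 54.4, 47.4 and 50.4 CPM with LCA, 82.6, 95.6 and 73.2 CPM with IsoLCA and 64.5, 58.8 and 52.8 CPM with DehydroLCA. IsoLCA lay above the rest, and the other groups overlapped. Cxcr6 had log2 fold changes of 0.73 ± 0.095 with IsoLCA and 0.01 with LCA and 0.22 with DehydroLCA, and DehydroLCA differed from IsoLCA by -0.51 (edgeR adjusted p = 0.000467, or 0.00299 within the pair). Sccpdh and Dse had log2 fold changes of 0.49 and 0.42 with IsoLCA. The private falls were led by Hbegf, an epidermal growth factor receptor ligand, Ston2, an endocytic adaptor, Tnfrsf4, a costimulatory receptor of activated T cells, and Irf8, an interferon regulatory factor. With IsoLCA they had log2 fold changes of -0.71, -0.64, -0.50 and -0.47, and with DehydroLCA by -0.05, -0.32, -0.25 and -0.16, none of the latter called. Under some alternatives the DehydroLCA values were called too (for Irf8, the 12 libraries alone; for Ston2 and Tnfrsf4, DESeq2's Wald test). For Ston2 and Tnfrsf4 the DehydroLCA to IsoLCA difference was called only with adjustment over the 3 pairs (edgeR adjusted p = 0.0376 and 0.0415, against 0.139 and 0.15 within the pair). Of 20 chaperones and unfolded protein response genes of the endoplasmic reticulum, 7 rose and 0 fell with IsoLCA, where 3.73% of all tested genes rose. With LCA 2 rose and 3 fell, against 17.7% and 18.8% of all tested genes, and with DehydroLCA 1 rose (2.41%). Among them 2 were private IsoLCA rises.

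DehydroLCA had 4 private genes (0.0307%), all higher, and 36 genes (0.276% of those tested, 4.74% of its calls) were called against Control with it alone. The 4 were Mical2, an actin-oxidising enzyme, Srgap3, a GTPase-activating protein, Plcg2, a phospholipase C, and C1qtnf6, a secreted C1q-related protein. Mical2 (chromosome 7, 112225836 to 112355194, plus strand) stood at 7.40, 9.33 and 8.04 CPM in the Control libraries, 9.39, 8.44 and 8.35 CPM with LCA, 9.69, 9.95 and 10.98 CPM with IsoLCA and 15.3, 13.1 and 13.8 CPM with DehydroLCA. The DehydroLCA libraries lay above all others. Mical2 had log2 fold changes of 0.77 ± 0.12 with DehydroLCA (edgeR adjusted p = 0.000115), 0.08 with LCA and 0.31 with IsoLCA. The IsoLCA value was called in a fit of the 12 libraries alone, where Mical2 was then not private to DehydroLCA. Srgap3 stood at 23.1, 22.3 and 19.9 CPM in the Control libraries, 26.2, 23.1 and 24.4 CPM with LCA, 22.5, 27.2 and 21.8 CPM with IsoLCA and 33.4, 32.4 and 30.7 CPM with DehydroLCA, again with DehydroLCA above every other library. Srgap3, Plcg2 and C1qtnf6 had log2 fold changes of 0.56 ± 0.081, 0.23 ± 0.046 and 0.23 ± 0.056 with DehydroLCA. At a fold of 1.5 no gene was private to DehydroLCA, and removing a transcript length and GC trend gave 8 private genes.

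In the direct pairs the ketone lay nearest to IsoLCA. IsoLCA and LCA differed in 3388 genes (26% of those tested), DehydroLCA and LCA in 2232 (17.1%) and DehydroLCA and IsoLCA in 604 (4.63%), by edgeR with adjustment over the 3 pairs. Adjusted within each pair alone the counts were 3957 (30.3%), 2317 (17.8%) and 218 (1.67%). DehydroLCA lay higher than LCA in 1290 genes (9.89%) and lower in 942 (7.22%). At 2-fold or more they were 137, 66 and 31. Without LCA replicate 2 the counts with LCA were 1983 for IsoLCA and 1192 for DehydroLCA, and without IsoLCA replicate 1 they were 2258 for IsoLCA and LCA and 359 for DehydroLCA and IsoLCA, a pair that gave 340 without DehydroLCA replicate 3. IsoLCA lay higher than LCA in 1808 genes (13.9%) and lower in 1580 (12.1%), but among changes of at least 1.5-fold in 121 and 282. DehydroLCA lay higher than IsoLCA in 371 (2.84%) and lower in 233 genes (1.79%). That split was 342 and 338 with the length and GC trend removed, 395 and 430 with the replicate number as a block as well, 154 and 60 at an adjusted p under 0.01, 66 and 15 at 1.5-fold and 156 and 62 when adjusted within the pair.

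Whether the ketone lies between the epimers was asked of the 3388 genes that differed between LCA and IsoLCA. These genes were chosen by the contrast of the epimers. The adjustment over the 3 pairs also takes in the p-values of the ketone's pairs, so the choice is not independent of the ketone. Adjusted within the pair, IsoLCA and LCA differed in 3957 genes. The pair contrasts share libraries, so the classes are a description of where the ketone was called to lie. A missing call is not a shown equality, so the ketone may also be intermediate in genes classed with 1 epimer. DehydroLCA was called against LCA and not against IsoLCA in 1602 of the 3388 genes (47.3%, or 12.3% of all tested genes), and so was classed as standing with IsoLCA. It stood with LCA, being called against IsoLCA alone, in 231 (6.82%, or 1.77% of all tested). It was called against both on opposite sides, that is strictly between, in 108 (3.19%, or 0.828% of all tested), above both in 22 (0.169%) and below both in 6 (0.046%). In 1419 (41.9%, or 10.9% of all tested) it was called against neither, and its place was not resolved at this precision.

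DehydroLCA stood with IsoLCA 6.94 times as often as with LCA. The ratio was over 1 in all 23 alternatives run, from 4.67 to 20.1. Of the 1602 genes, 1230 (76.8%) were called against Control with LCA alone. The class sizes depended on single libraries: the strictly between count was 51, 61 and 48 without DehydroLCA replicates 1, 2 and 3, 56 without IsoLCA replicate 1, 62 and 71 without LCA replicates 2 and 3, and 35 when adjusted within each pair. The count with LCA was 135 without DehydroLCA replicate 3, 123 without IsoLCA replicate 1 and 91 within pairs, the count with IsoLCA was 793 without LCA replicate 2, and the unresolved count was 761 without IsoLCA replicate 1. The counts above and below both were 10 and 3 without IsoLCA replicate 1, 13 and 3 without IsoLCA replicate 3, and the count above both was 10 and 12 without LCA replicates 2 and 3.

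As a description with no test, the mean of DehydroLCA lay between those of the epimers in 2862 of the 3388 genes (84.5%). It lay beyond LCA in 73 and beyond IsoLCA in 453. Set on a log2 scale with LCA at 0 and IsoLCA at 100%, the median place of DehydroLCA was 69.9% (quartiles 53.8% and 86.8%), and 2679 genes (79.1%) lay nearer to IsoLCA. Among the 137 genes that differed at least 2-fold between the epimers the median was 62.8%. All these genes were chosen for a difference between the epimers, which makes a place between them more likely for any other group. Control was not placed on this scale, so a place between the epimers cannot be told apart here from nearness to Control.

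**Figure D4:**
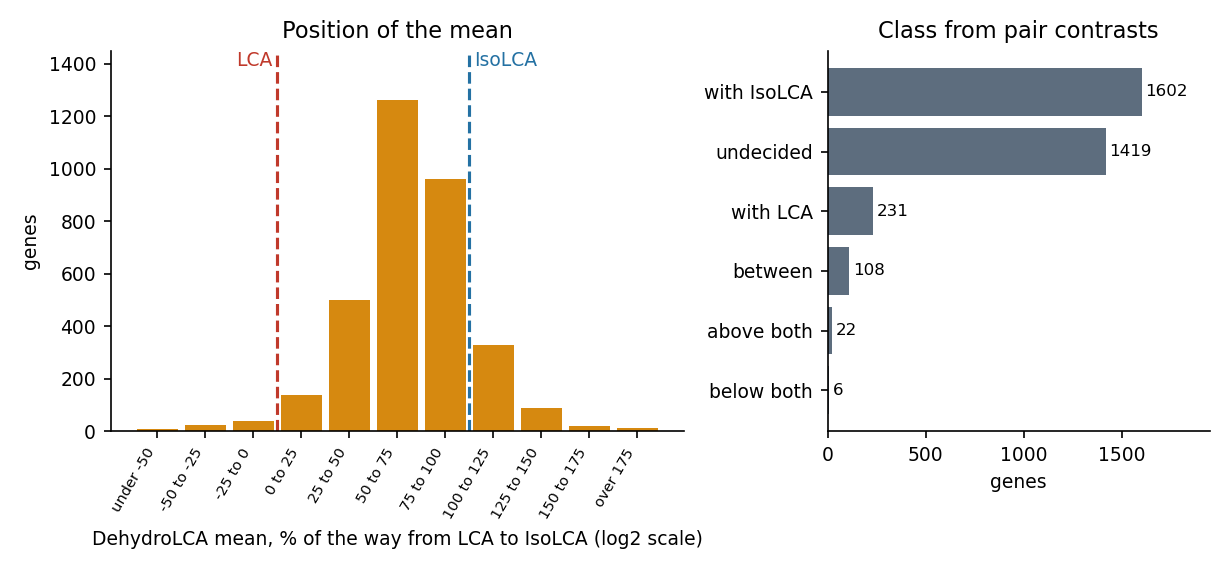
Place of the DehydroLCA mean on the log2 scale from LCA (0%) to IsoLCA (100%) in genes called between the epimers, as a histogram of gene numbers, with the number of genes in each class from the direct contrasts. The median lies at 69.9%, and 1602 genes were classed with IsoLCA, 231 with LCA and 108 between.

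Interferon-stimulated genes formed the list with the most members strictly between the epimers. Of 35 tested members, 26 rose and 2 fell with LCA, 0 rose and 11 fell with IsoLCA, and 6 rose and 2 fell with DehydroLCA. Among all tested genes 17.7% rose and 18.8% fell with LCA, 3.73% and 6.12% with IsoLCA and 2.41% and 3.41% with DehydroLCA. The medians of the list were 0.59 with LCA, -0.19 with IsoLCA and 0.09 with DehydroLCA. Of the 30 that differed between the epimers, all lower with IsoLCA, DehydroLCA was strictly between in 14, with IsoLCA in 15 and unresolved in 1. Over all 3388 genes the strictly between share was 3.19%. Adjusted within each pair it was 0.885% of 3957 genes, and the list was counted only with adjustment over the 3 pairs. Dendritic cell markers, which were also highest with LCA and lowest with IsoLCA, summed to at most 62.2 CPM, and their part was not tested.

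Isg15, an interferon-induced ubiquitin-like modifier (chromosome 4, 156199424 to 156200818, minus strand), stood at 5.79, 7.71 and 4.70 CPM in the Control libraries, 16.5, 15.7 and 15.2 CPM with LCA, 5.80, 4.69 and 4.53 CPM with IsoLCA and 9.10, 9.04 and 7.56 CPM with DehydroLCA. LCA lay highest without overlap, DehydroLCA lay between LCA and IsoLCA without overlap, and the DehydroLCA range (7.56 to 9.10 CPM) overlapped that of Control. Its log2 fold changes were 1.39 ± 0.13, -0.27 ± 0.15 and 0.50 ± 0.14, with edgeR adjusted p = 8.24e-09, 0.294 and 0.0291. DehydroLCA differed from LCA by -0.88 (edgeR adjusted p = 2.02e-05) and from IsoLCA by 0.78 (0.000404). Rtp4, a chaperone induced by interferon, had log2 fold changes of 1.57, -0.05 (not called) and 0.58 and Xaf1, a proapoptotic interferon target, of 0.82, -0.24 (not called) and 0.24 (not called). For Rtp4 the DehydroLCA to IsoLCA difference was called over the 3 pairs (edgeR adjusted p = 0.0107) and not within the pair (0.0524).

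The promoters of Isg15 and Ifit1, both with the ketone strictly between the epimers, are shown with their matches to the letters of an interferon element. Each is the 250 bases before the RefSeq start on GRCm38.p6 (chr4:156200819-156201068, minus strand, and chr19:34640639-34640888, plus strand), 5′ to 3′, with capitals at matches on either strand to the letters GAAA, any 2 bases and GAAA again, where matches can overlap each other:
Isg15: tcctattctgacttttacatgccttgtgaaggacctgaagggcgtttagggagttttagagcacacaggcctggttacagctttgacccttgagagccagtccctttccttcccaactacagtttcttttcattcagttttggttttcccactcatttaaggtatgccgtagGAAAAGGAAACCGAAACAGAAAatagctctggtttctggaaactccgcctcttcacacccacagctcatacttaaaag
Ifit1: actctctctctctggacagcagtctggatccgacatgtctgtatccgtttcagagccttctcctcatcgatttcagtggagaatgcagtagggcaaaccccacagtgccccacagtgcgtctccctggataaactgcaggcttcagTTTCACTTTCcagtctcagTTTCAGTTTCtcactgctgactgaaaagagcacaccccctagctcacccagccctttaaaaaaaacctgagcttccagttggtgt
Isg15 held 3 matches and Ifit1 held 2. Of 24 interferon-stimulated genes with a promoter in the table, 11 (45.8%) held these letters, against 2.98% of the 32851 promoters, a set not limited to tested genes. Both genes rose with LCA, Ifit1 by 0.65, and Ifit1 had log2 fold changes of -0.55 with IsoLCA (called lower) and 0.12 with DehydroLCA (not called).

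Other genes with a strictly intermediate ketone were led by Ccl5, a T cell chemokine, and Slc6a9, a glycine transporter. Ccl5 (chromosome 11, 83525779 to 83530518, minus strand) stood at 11.3, 15.1 and 11.99 CPM in the Control libraries, 23.3, 26.9 and 27.8 CPM with LCA, 10.9, 10.3 and 10.1 CPM with IsoLCA and 15.6, 17.4 and 15.7 CPM with DehydroLCA. All DehydroLCA libraries lay below LCA and above IsoLCA and Control. Ccl5 had log2 fold changes of 1.02 ± 0.12, -0.29 ± 0.13 and 0.34 ± 0.12, and the DehydroLCA change from Control was not called (edgeR adjusted p = 0.112), while its differences from LCA and IsoLCA were (0.000188 and 0.000999). Slc6a9 had log2 fold changes of 1.14, -0.06 (not called) and 0.34 (not called). In the lipid genes the order ran the other way, with LCA lowest: Scd2, a desaturase, had log2 fold changes of -0.92, -0.30 and -0.53 and Arl4c, a liver X receptor target, of -0.51, -0.10 (not called) and -0.23, like Abcg1 and Srebf1 above. Of 9 liver X receptor targets that differed between the epimers 3 were strictly between, 1 with LCA, 4 with IsoLCA and 1 unresolved.

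Genes of the integrated stress response did not all place the ketone alike. Of 29 stress response genes that differed between the epimers, 18 stood with IsoLCA, 6 strictly between, 1 with LCA and 4 unresolved. The member with LCA was Atf3, a stress-induced transcription factor, which stood at 22.4, 31.6 and 27.7 CPM in the Control libraries, 37.4, 35.5 and 34.3 CPM with LCA, 20.4, 16.2 and 24.5 CPM with IsoLCA and 27.8, 29.4 and 29.9 CPM with DehydroLCA. DehydroLCA overlapped Control and lay between the epimers without overlap. Atf3 had log2 fold changes of 0.39 ± 0.11 with LCA, -0.41 ± 0.12 with IsoLCA and 0.09 ± 0.12 with DehydroLCA, which differed from IsoLCA by 0.50 (edgeR adjusted p = 0.00421) and from LCA by -0.30 (95% interval -0.53 to -0.07, adjusted p = 0.0715). Asns, the asparagine synthetase, was classed with IsoLCA and had log2 fold changes of 0.70, 0.14 (not called) and 0.28. Its DehydroLCA to IsoLCA difference was 0.15 (95% interval 0.02 to 0.28), not called. In both Atf3 and Asns the ketone mean lay between those of the epimers. Their classes differ only in which contrast passed the adjusted threshold.

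The Asns and Atf3 promoters are shown because both belong to this list while the ketone was classed with different epimers. Each is the 250 bases before the RefSeq start on GRCm38.p6 (chr6:7693210-7693459, minus strand, and chr1:191183334-191183583, minus strand), 5′ to 3′, with capitals at the 1 match in each, on either strand, to the ATF4 element letters TGATGNAA:
Asns: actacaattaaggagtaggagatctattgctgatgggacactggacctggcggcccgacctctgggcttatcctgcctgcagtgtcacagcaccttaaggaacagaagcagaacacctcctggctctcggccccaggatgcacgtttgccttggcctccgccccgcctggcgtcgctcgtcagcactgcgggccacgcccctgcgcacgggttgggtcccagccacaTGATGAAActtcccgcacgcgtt
Atf3: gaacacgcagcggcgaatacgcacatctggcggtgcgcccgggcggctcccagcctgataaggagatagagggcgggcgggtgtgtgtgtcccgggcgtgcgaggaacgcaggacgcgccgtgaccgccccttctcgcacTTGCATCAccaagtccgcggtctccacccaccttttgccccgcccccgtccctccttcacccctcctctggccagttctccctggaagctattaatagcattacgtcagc
Of 30 genes of the list with a promoter in the table, 7 (23.3%) held these letters, against 3.45% of the 32851 promoters, a set not limited to tested genes.

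Among genes of at least 10 CPM in a group where the ketone stood with LCA, the largest epimer differences were in Mt1, Atf3, Lif and Cxcr6. Lif, a cytokine of the interleukin-6 family, stood at 98.8, 103 and 107 CPM in the Control libraries, 75.5, 74.4 and 74.2 CPM with LCA, 45.2, 34.8 and 53.99 CPM with IsoLCA and 62.2, 67.7 and 73.3 CPM with DehydroLCA. IsoLCA lay lowest, and the DehydroLCA libraries lay below LCA without overlap, though that difference was not called (-0.14, 95% interval -0.41 to 0.13). Lif had log2 fold changes of -0.46 ± 0.13, -1.20 ± 0.13 and -0.60 ± 0.13 with LCA, IsoLCA and DehydroLCA. Gfi1, a transcriptional repressor of lymphocyte development, also stood with LCA, with changes of -0.66, -1.22 and -0.53, and its DehydroLCA to IsoLCA difference was 0.69 ± 0.071 (edgeR adjusted p = 3.12e-07).

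Over all tested genes DehydroLCA was called above both epimers in 124 (0.951%) and below both in 20 (0.153%). Adjusted within each pair these counts were 71 and 9. The count above was 82 without LCA replicate 2, and the count below was 11 and 12 without DehydroLCA replicates 1 and 2 and 12 without IsoLCA replicate 3. In Acp5, Tubb6, Rap1gap2 and Ltb4r1, the leading genes above both, the epimers were both called below Control, and the ketone had a smaller change in the same direction that was called in all but Rap1gap2. Tubb6, a beta tubulin (chromosome 18, 67390731 to 67402749, plus strand), stood at 81.1, 85.02 and 84.5 CPM in the Control libraries, 29.8, 24.9 and 27.8 CPM with LCA, 34.9, 28.5 and 32.98 CPM with IsoLCA and 54.2, 53.1 and 54.9 CPM with DehydroLCA. The DehydroLCA libraries lay between Control and the epimers without overlap. Tubb6 had log2 fold changes of -1.60 ± 0.070, -1.38 ± 0.069 and -0.63 ± 0.067, and DehydroLCA lay 0.97 above LCA and 0.75 above IsoLCA (edgeR adjusted p = 1.61e-09 and 6.85e-08).

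Rap1gap2, a Rap GTPase-activating protein, had log2 fold changes of -1.18, -1.05 and -0.30 (not called) and Ltb4r1, the leukotriene receptor, of -0.90, -0.84 and -0.27. Bspry and Treml2, the latter a receptor on activated T cells, had log2 fold changes of -0.80, -1.48 and -0.48 and -0.66, -1.26 and -0.45, so that IsoLCA lay lowest and the ketone highest of the 3 acids. The leading genes below both were Lmna, Synpo, an actin-binding protein, Mt2 and Slc30a1, the zinc exporter. Slc30a1 stood at 12.7, 11.3 and 11.02 CPM in the Control libraries, 17.7, 17.6 and 17.4 CPM with LCA, 20.6, 19.5 and 20.9 CPM with IsoLCA and 14.5, 14.6 and 14.6 CPM with DehydroLCA. The groups did not overlap, in the order Control, DehydroLCA, LCA and IsoLCA. Slc30a1 had log2 fold changes of 0.59, 0.80 and 0.32 and Synpo of 0.16 (not called), 0.27 and -0.16 (not called).

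A test of DehydroLCA against the midpoint of the epimers called 386 genes (2.96%), 311 higher (2.38%) and 75 lower (0.575%). Without DehydroLCA replicates 1, 2 and 3 the count was 232, 169 and 210, and without LCA replicate 2 it was 244. The departures from the midpoint were 0.90 ± 0.068 for Acp5, 0.86 ± 0.060 for Tubb6, -0.51 ± 0.052 for Lmna and -0.89 ± 0.064 for Mt2. Isg15 lay -0.05 from the midpoint (95% interval -0.29 to 0.18) and Abcg1 -0.02 (-0.20 to 0.16), and neither was called.

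Of 34 tested genes induced by T cell receptor signalling, 8 rose and 11 fell with LCA, 0 rose and 15 fell with IsoLCA, and 0 rose and 4 fell with DehydroLCA. Among all tested genes 17.7% rose and 18.8% fell with LCA, 3.73% and 6.12% with IsoLCA and 2.41% and 3.41% with DehydroLCA. In the direct contrast DehydroLCA lay above IsoLCA in 11 of the 34 and below in 0, against 2.84% and 1.79% of all tested genes. The other 23 were not called. Nfkbia, the inhibitor of NF-kB, had log2 fold changes of 0.76, -0.11 (not called) and 0.19 (not called) and Nr4a3, an orphan nuclear receptor of activated T cells, of 0.56, -0.27 and 0.00 (not called), both with the ketone strictly between. Cd69, an early activation marker, had log2 fold changes of 0.56, 0.03 (not called) and 0.13 (not called), and its DehydroLCA to IsoLCA difference was not called. Outside that list, the costimulatory gene Tnfrsf8 had log2 fold changes of -0.77, -0.76 and -0.22 (not called). Ctla4, an inhibitory receptor of another list, had log2 fold changes of -0.45, -0.44 and -0.10 (not called), and DehydroLCA lay 0.35 above LCA and 0.35 above IsoLCA (edgeR adjusted p = 0.000145 and 0.00016).

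Effector genes were called in both directions with each acid. Of 26 cytotoxic effector genes 5 rose and 9 fell with LCA, 4 and 7 with IsoLCA and 3 and 4 with DehydroLCA, where the shares of all tested genes that rose and fell were 17.7% and 18.8%, 3.73% and 6.12%, and 2.41% and 3.41%. The share that rose with LCA was thus near that of all genes. Gzmb, the main granzyme of killer T cells, had log2 fold changes of -0.40, -0.30 and -0.17 (not called) and the perforin gene Prf1 of -0.76, -0.45 and -0.32 (not called), neither called with DehydroLCA. The DehydroLCA to IsoLCA difference was 0.13 (95% interval -0.04 to 0.31) for Gzmb and 0.14 (-0.08 to 0.35) for Prf1. Gzmc, a granzyme with close relatives among which reads may be shared, rose with all 3 acids, by 1.04, 0.23 and 0.31. Ifng, which encodes interferon gamma, stood at 3.56, 5.48 and 4.25 CPM in the Control libraries, 5.04, 3.45 and 5.38 CPM with LCA, 3.15, 2.10 and 2.54 CPM with IsoLCA and 2.70, 2.38 and 2.34 CPM with DehydroLCA. IsoLCA and DehydroLCA lay below every Control library, and LCA overlapped Control. Ifng had log2 fold changes of -0.77 ± 0.19 with IsoLCA and -0.84 ± 0.19 with DehydroLCA (edgeR adjusted p = 0.00682 and 0.00688), and 0.06 with LCA (95% interval -0.28 to 0.41).

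Of the transcription factor genes in that list, Prdm1 and Tbx21 fell with all 3 acids, Eomes and Id2 fell with LCA and were not called with the others, Runx3 rose with LCA alone and Zeb2 was not called with any acid. Prdm1, which encodes the repressor Blimp, had log2 fold changes of -0.79, -0.77 and -0.52 and Tbx21, which encodes T-bet, of -0.24, -0.39 and -0.23. Tcf7, a factor of memory and stem-like T cells, rose with IsoLCA (0.43) and was not called with LCA or DehydroLCA (0.16 and 0.17), and no pair was called for it. Id3 and Pim2 moved in opposite directions with the epimers: Id3, an inhibitor of differentiation, had log2 fold changes of -0.17, 0.30 and 0.15 (not called) and the kinase gene Pim2 of -0.25, 0.26 and -0.04 (not called), with DehydroLCA not called against Control in either. Pdcd1, the inhibitory checkpoint receptor gene, was not called with any acid (0.08 (not called), -0.13 (not called) and -0.05 (not called)), and its 95% intervals were -0.11 to 0.27, -0.32 to 0.06 and -0.24 to 0.14.

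Of 31 bile acid receptors, partners and transporters, 15 could be tested. Nr1h4 and Gpbar1 were not among them, with at most 1 and 4 counts in any of the 12 libraries. Vdr stood at 2.23, 3.16 and 2.60 CPM in the Control libraries, 4.03, 3.87 and 2.97 CPM with LCA, 4.37, 3.62 and 3.40 CPM with IsoLCA and 3.27, 3.13 and 3.26 CPM with DehydroLCA. The IsoLCA libraries lay above Control, while those of LCA and DehydroLCA overlapped it. Vdr rose with LCA (0.45 ± 0.15) and IsoLCA (0.51 ± 0.15) and was not called with DehydroLCA (0.28, 95% interval -0.05 to 0.60), and no pair was called, with DehydroLCA -0.23 from IsoLCA (-0.54 to 0.07). Of the 15, 7 rose with LCA, 6 with IsoLCA and 2 with DehydroLCA, and none fell. Of 18 heat shock genes 10 rose with LCA, 3 with IsoLCA and 4 with DehydroLCA, none fell, and 3 were shared rises, a class that held 1.2% of all tested genes. Of 20 antioxidant targets of NRF2, 7 rose and 6 fell with LCA, 5 and 2 with IsoLCA and 4 and 2 with DehydroLCA, with 4 shared rises and 1 shared fall. Among all tested genes 17.7% rose and 18.8% fell with LCA, 3.73% and 6.12% with IsoLCA and 2.41% and 3.41% with DehydroLCA. Hspa8, a constitutive chaperone, had log2 fold changes of 0.38, 0.17 and 0.22 and Gclm, a subunit of the glutathione-synthesising ligase, of 0.63, 0.43 and 0.32.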

How the data were processed

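RNA of mouse T cells was measured by RNA-seq from ultra-low input cDNA libraries, and 12 of the 24 libraries of the series enter the comparisons reported here. The authors deposited expected counts per gene, not normalized, with gene coordinates and transcript length, made with HOMER from reads in exons, per the file headers. Per the submitters' processing notes, the tools were STAR, HOMER and DESeq2 and the builds GRCm38 and mm10, with no versions. No source used here gives the strand option. The counts come in steps of 0.5, and 29.4% of values were not whole. The design had assumed whole counts. They were rounded to whole numbers and the same count test was used.

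edgeR 4.0.16 in R 4.3.3 (limma 3.58.1) fitted all 24 libraries in 1 quasi-likelihood model by group, with TMM scaling and edgeR's filter on low counts. The acids were compared with Control with Benjamini-Hochberg adjustment over the 13044 tested genes, and with each other with adjustment over the 3 pairs together. Standard errors were derived from the F statistic, and 95% intervals use the fit's degrees of freedom. CPM use TMM-scaled library sizes. The code was tested on simulated data. Alternatives were DESeq2 1.42.0, other scalings, filters and thresholds, a length and GC trend, a replicate block and leaving out each of the 12 libraries.

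The acids, gene lists and tests were chosen with earlier results of these data known. Named genes are those of at least 10 CPM in a group with the largest changes among shared, private, pair and position classes, the 2 members of each list with the smallest pair p, and a fixed set with no minimum level, which holds Vdr, Ifng, Nr1h4 and Gpbar1. Asns, Ifit1, Dhcr7, Vegfa, Batf3, Zbtb46, Eomes, Runx3 and Zeb2 were chosen after their values were seen. Close relatives (Mt1 and Mt2, Gbp, Gimap and granzyme genes) may share reads in the authors' counting. Promoters were matched by symbol to RefSeq (GRCm38.p6).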

Additional observations from a re-analysis of the deposited data

How the results depend on the processing

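Counts of genes kept their size within 1.5 times when the fit used the 12 libraries alone, DESeq2's size factors, DESeq2's Wald test, no filter on low counts or a filter of 10 CPM, and no called value changed sign. With the length and GC trend removed the count was 8 for genes private to DehydroLCA. Replicate numbers in the labels are shared by the groups, and the labels do not say whether a number marks a shared animal or day. Deviations correlated over 0.1 in 2 of 18 same-numbered pairs of libraries (range -0.31 to 0.27). Their own number gave the best correlation for 6 of 12 libraries. These values do not settle whether the numbers mark a pairing, and the main fit used no replicate block. With the number as a replicate block DehydroLCA and IsoLCA differed in 426 genes upward and 287 downward, and no count moved by over 1.5 times. The block with the trend removed gave 8 for genes private to DehydroLCA, 175 for the ketone strictly between and 38 for below both over all tested genes. An adjusted p under 0.01 gave 3129 for LCA against Control, 726 for IsoLCA against Control, 357 for DehydroLCA against Control, 1890 for IsoLCA against LCA, 1116 for DehydroLCA against LCA, 214 for DehydroLCA against IsoLCA, 197 for DehydroLCA against the midpoint, 241 for genes shared by the 3 acids, 648 for genes private to LCA, 27 for genes private to IsoLCA, 23 for the ketone strictly between, 80 for the ketone with LCA, 795 for the ketone with IsoLCA, 5 for the ketone above both epimers, 3 for the ketone below both, 60 for above both over all tested genes and 6 for below both over all tested genes. A fold of at least 1.5 gave 761 for LCA against Control, 244 for IsoLCA against Control, 108 for DehydroLCA against Control, 403 for IsoLCA against LCA, 235 for DehydroLCA against LCA, 81 for DehydroLCA against IsoLCA, 46 for DehydroLCA against the midpoint, 66 for genes shared by the 3 acids, 102 for genes private to LCA, 8 for genes private to IsoLCA, 0 for genes private to DehydroLCA, 10 for the ketone strictly between, 27 for the ketone with LCA, 126 for the ketone with IsoLCA, 240 for an unresolved ketone, 0 for the ketone above both epimers, 0 for the ketone below both, 16 for above both over all tested genes and 3 for below both over all tested genes. Adjustment within each pair gave 218 for DehydroLCA against IsoLCA, 34 for genes private to IsoLCA, 35 for the ketone strictly between, 91 for the ketone with LCA, 71 for above both over all tested genes and 9 for below both over all tested genes. Leaving out each of the 12 libraries in turn gave 3648 to 4865 for LCA against Control, 815 to 1272 for IsoLCA against Control, 400 to 806 for DehydroLCA against Control, 1983 to 3416 for IsoLCA against LCA, 1192 to 2255 for DehydroLCA against LCA, 340 to 614 for DehydroLCA against IsoLCA, 169 to 384 for DehydroLCA against the midpoint, 262 to 479 for genes shared by the 3 acids, 602 to 1307 for genes private to LCA, 37 to 76 for genes private to IsoLCA, 3 to 5 for genes private to DehydroLCA, 48 to 119 for the ketone strictly between, 123 to 246 for the ketone with LCA, 793 to 1607 for the ketone with IsoLCA, 761 to 1757 for an unresolved ketone, 10 to 22 for the ketone above both epimers, 3 to 6 for the ketone below both, 82 to 130 for above both over all tested genes and 11 to 19 for below both over all tested genes. Over the single genes, 6784 values under these settings stayed on their side of the threshold, 371 no longer passed and 147 newly passed, and leaving out libraries gave 7670, 269 and 53. The dose was 50 µM alone, so no dose response could be read, and the duration is stated in 2 ways. The IsoLCA and DehydroLCA calls against Control rest on the same 3 Control libraries. Nr1h4 and Gpbar1 were too low for a test at this depth.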

Other observations

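Genes of antigen presentation, fatty acid synthesis, cell death and the lysosome were called lower more often than higher with LCA. Of 29 tested genes of the interferon gamma response and antigen presentation, 3 rose and 13 fell with LCA, 0 and 15 with IsoLCA, and 0 and 10 with DehydroLCA, and 9 were shared falls. Of 17 genes of fatty acid synthesis and desaturation, 0 rose and 10 fell with LCA, 1 and 5 with IsoLCA, and 1 and 8 with DehydroLCA. Of 26 p53 targets and apoptosis genes, 2 rose and 13 fell with LCA, 0 and 2 with IsoLCA, and 0 and 2 with DehydroLCA. Of 32 lysosome and autophagy genes, 6 rose and 14 fell with LCA, 2 and 2 with IsoLCA, and 1 and 3 with DehydroLCA. Of 17 metallothionein and zinc transport genes, 4 rose and 5 fell with LCA, 3 and 2 with IsoLCA, and 2 and 0 with DehydroLCA. Of 29 genes of the nuclear lamina, tubulin and actin cytoskeleton, 3 rose and 7 fell with LCA, 5 and 3 with IsoLCA, and 4 and 4 with DehydroLCA. With edgeR's adjusted p under 0.05, the shares of all tested genes that rose and fell were 17.7% and 18.8% with LCA, 3.73% and 6.12% with IsoLCA and 2.41% and 3.41% with DehydroLCA.

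The lists of T cell function given in this paragraph each had members that rose and members that fell with LCA and with IsoLCA. For comparison, 17.7% of all tested genes rose and 18.8% fell with LCA. These shares were 3.73% and 6.12% with IsoLCA and 2.41% and 3.41% with DehydroLCA. Of 25 tested cytokine and cytokine signalling genes, 3 rose and 9 fell with LCA, 3 and 11 with IsoLCA, and 0 and 6 with DehydroLCA. Among 14 chemokines and their receptors, 2 rose and 5 fell with LCA, 1 and 3 with IsoLCA, and 0 and 2 with DehydroLCA. Of 24 naive and memory genes, 1 rose and 11 fell with LCA, 2 and 9 with IsoLCA, and 0 and 5 with DehydroLCA. The inhibitory receptors and exhaustion factors had 17 tested members, of which 5 rose and 4 fell with LCA, 4 and 5 with IsoLCA, and 2 and 4 with DehydroLCA. Of 18 TNF superfamily and costimulation genes, 3 rose and 7 fell with LCA, 1 and 7 with IsoLCA, and 1 and 2 with DehydroLCA. Pairs of acids shared further calls against Control: 447 genes had the same direction with LCA and IsoLCA only, 211 with LCA and DehydroLCA only and 39 with IsoLCA and DehydroLCA only, while 40 genes moved in opposite directions with the 2 epimers.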
